A study of Mus musculus with 12 samples.

Results

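The wild-type (WT) libraries of a study of mouse T helper 2 (Th2) cells are described here, as 3 RNA-seq and 3 ATAC-seq libraries of the 12 libraries in the series. They were chosen by their label alone: every library labelled WT was taken, and the conditional knockout libraries were not used. The labels give the cells as Th2 cells, the source as T cell and the genotype as WT, and the study's design text speaks of mouse models of allergic asthma. Strain, age, sex, the alleles that the WT animals carried, the tissue and the days in culture or in the animal are not given in the sources used here. Nor do the labels say whether WT1, WT2 and WT3 were separate animals or cultures, so the spread between them may be technical. No comparison between groups was made, and the values below are descriptions without a test.

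Th2 cells are CD4 helper T cells that respond to allergens and worms. The transcription factor GATA3 sets their identity, STAT6 carries the signal of interleukin 4 (IL-4) to the nucleus, and IL-4, IL-5 and IL-13, whose genes lie close together on one mouse chromosome, are their best known products. ATAC-seq marks DNA that a transposase can reach, which is mostly found at gene starts and enhancers. Genes that define a cell type often lie in wide stretches of such open chromatin, with many neighbouring enhancers, while widely used genes tend to have a single open start.

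The RNA values are the authors' normalized counts, whose sum was 7342611 in WT1, 6916169 in WT2 and 7063504 in WT3 over 25700 rows, and the raw depth behind them is unknown. They are not divided by transcript length, so an order of genes is an order of counts and not of molecules. The ATAC libraries held 13247145, 18327127 and 13317130 tags (mapped read positions) in WT1, WT2 and WT3, of which 38.28%, 25.22% and 35.63% lay in 75017, 60069 and 64585 called peaks. WT2 was the deepest ATAC library and had the smallest share of tags in peaks. In regions found in all 3 lists its tag count per 10000000 tags was at the median 0.7 times that of WT1, while the ratio of WT3 to WT1 was 0.95. This gap touches every tag count below, so values are given for each library. RNA libraries correlated with each other at Pearson's r of 0.894 to 0.902 on the log2(count + 1) scale across 18181 genes with a mean of at least 10. Xist was measured at 4047, 3879 and 3174 normalized counts and the Y-linked Ddx3y at 140, 123 and 132 in WT1, WT2 and WT3, so transcripts of both kinds were present in each RNA library.

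The label was first checked against marker genes. Cd4, the coreceptor that defines helper T cells, was measured at 2274, 1786 and 1804 normalized counts in WT1, WT2 and WT3. All 10 genes of the T cell marker list had a mean of at least 50 normalized counts. This was the minimum used here to call a gene expressed, and 46.2% of the 25675 distinct gene symbols reached it. Together the 10 T cell markers made up 0.267% to 0.289% of all counts. Cd8a, which marks the cytotoxic lineage, stood at 15.4, 1.52 and 0, and no region of open chromatin at its start was shared by the 3 libraries. Cd8b1, which encodes the other chain of CD8, read 67.4, 117 and 118 and had a region of all 3 libraries within 1 kb of its start, with 13.6, 13.4 and 16.9 tags per 10000000, so the 2 chains differed. Genes of other cells were lower in sum but not absent. The 10 B cell and plasma cell markers made up 0.017% to 0.021% of all counts, and 8 of them had a mean of at least 50. The 12 myeloid and dendritic cell markers in the table made up 0.004% to 0.006%, and 4 of them had a mean of at least 50. Flt3 was highest at 67.0, 56.5 and 84.1, while Itgam and C1qb were at 0 in WT3. Among the 9 markers of CD8, natural killer and gamma delta T cells, 0.003% to 0.004% of counts, Cd8b1 and Eomes (mean 67.8) had a mean of at least 50, 3 had such a region at the start, and Gzma was at 0 in WT2 and WT3. Of 6 markers of type 2 innate lymphoid cells in the table, which share genes with Th2 cells, 4 had a mean of at least 50, as did 5 of 10 epithelial and stromal markers, 1 of 5 eosinophil, basophil and mast cell markers and 0 of 2 neutrophil markers. In such bulk samples, fewer cells of a type and less RNA per cell cannot be told apart, and the part of other cells in the values below was not tested.

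The Th2 transcription factors were expressed and had open starts. Of 19 listed factors and partners, 17 had a mean of at least 50 normalized counts, beside 46.2% of all genes. A gene start was called open when a region found in all 3 WT peak lists lay within 1 kb of it. This held for 63.6% of 21345 located genes, for 88.5% of those with a mean of at least 50, and for 18 of the 19 factors. Gata3 was measured at 692, 755 and 688 normalized counts in WT1, WT2 and WT3. Its start lay in a region of 6009 bp (mean of the 3 libraries), chr2:9874203-9880320, with 317.8, 216.3 and 284.6 tags per 10000000. Around Gata3, 5 regions were found in all 3 libraries, of which this was the tallest. Tall and height refer here and below to the tag count of a region's strongest peak, which grows with its width. Stat6 read 1885, 1370 and 1349 normalized counts. Maf, which promotes Il4 transcription, read 107, 188 and 129. The highest factor by counts was Junb, an AP-1 subunit, at 7087, 6207 and 7177, and its region was also the tallest on the list, with 1764.5, 1034.0 and 1721.8 tags. Bhlhe40, Ikzf1, Rbpj, Satb1, Irf4 and Notch1 had means between 1036 and 2151.5, Batf, Notch2, Ets1, Dusp5, Gfi1, Zeb2 and Nfil3 between 248 and 754. At the low end stood Pparg, a lipid sensor of tissue Th2 cells, at 16.7, 11.8 and 14.1, and Prdm1, which encodes the effector factor Blimp-1, at 0, 8.36 and 6.30. The Prdm1 start was nonetheless open, with 75.1, 51.8 and 76.2 tags.

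Their cytokine genes were far apart in level. Of the 22 listed Th2 cytokines and secreted proteins in the table, 11 had a mean of at least 50 and 16 had an open start. These shares were near those of all genes, 46.2%, and of all located genes, 63.6%. Il13 was measured at 1093, 693 and 645 normalized counts in WT1, WT2 and WT3. Il4 was measured at 4.16, 0 and 5.24, and Il5 at 3.97, 10.3 and 7.53. Thus Il13 lay far above the low values of its neighbours Il4 and Il5 in every library. The strongest secreted product by counts was Penk, the precursor of enkephalin peptides, at 18624, 15236 and 17552, rank 28 of all genes. Il2, the T cell growth factor, followed at 3896, 4179 and 3864. The 3 libraries lay close together for Il2, whereas the chemokine gene Ccl22 was lower in WT1, at 448, than in WT2 and WT3, at 1132 and 1119. Ccl1, which attracts cells that carry CCR8, read 423, 604 and 380. The growth factor genes Csf2 and Il3, neighbours on chromosome 11, read 299, 426 and 283 for Csf2 and 306, 356 and 189 for Il3. Il9, which acts on mast cells, differed between libraries, at 14.6, 130 and 89.5. Lif and Tnf had means of 285 and 196, and Areg, an epidermal growth factor ligand, read 80.2, 77.0 and 78.9. Il6, Tslp, Epas1 (a transcription factor kept in this list), Ccl17, Il10, Il21, Plac8 and Il24 had means between 8.51 and 48.1, and Calca one of 1.55.

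**Figure D1:**
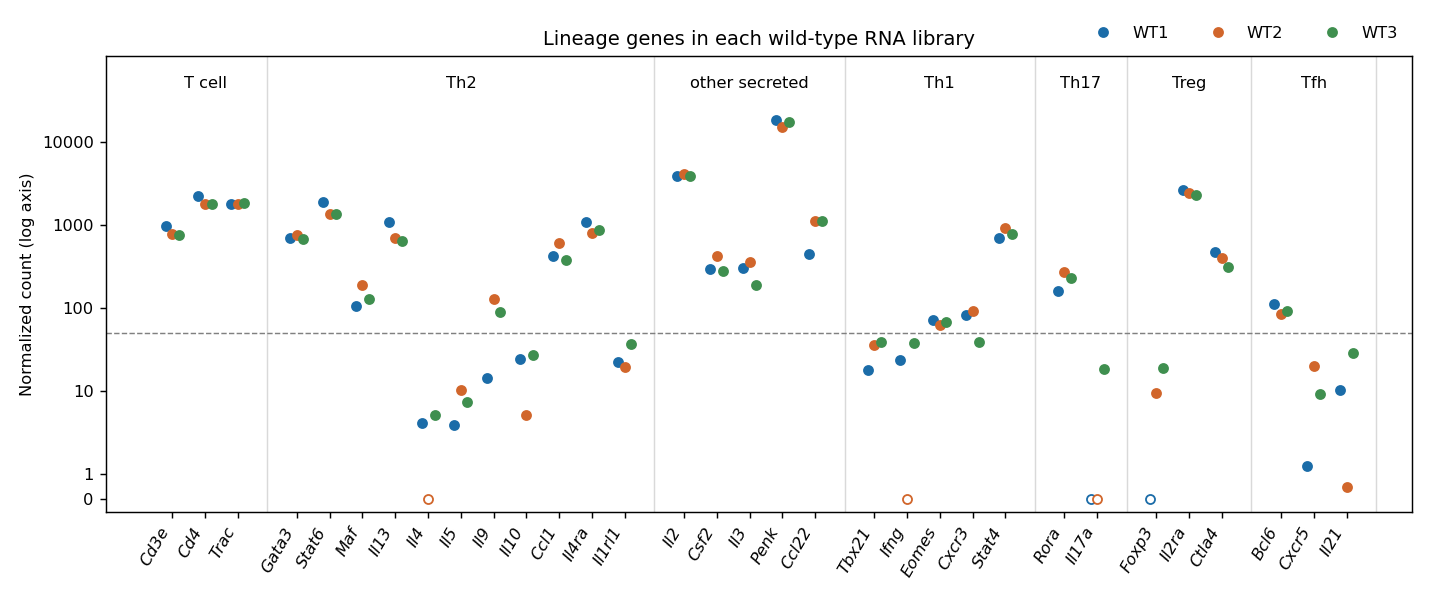
Normalized counts (log axis, 0 drawn as an open circle at the bottom) of helper lineage genes, 1 point per wild-type RNA library and a dashed line at the minimum of 50. Il13, Il2 and Penk lie above the line in all 3 libraries, whereas Il4, Il5, Tbx21, Ifng, Il17a and Foxp3 lie below it.

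The chromatin of the Th2 cytokine locus was uneven as well. In a window around Rad50, 16 of 23 regions were found in all 3 libraries. The tallest covered the Il13 start, chr11:53634097-53636958, with 196.3, 98.8 and 177.2 tags per 10000000 in WT1, WT2 and WT3. At the Il4 start a region, chr11:53617176-53618009, was called in WT1 and WT2, with 12.8 and 6.55 tags, and not in WT3. No list had a region within 1 kb of the Il5 start, and the nearest, chr11:53716396-53717459, had 20.4, 26.7 and 21.0 tags. Il13 thus had both the highest RNA and the tallest start of the 3. Rad50, a DNA repair gene whose body is known to hold the Th2 locus control region, read 528, 271 and 378 normalized counts. Its body held 3 regions of all 3 libraries between 16.4 and 28.7 kb from the Il13 start, of which the middle, chr11:53654906-53657489, had 53.2, 91.1 and 61.2 tags. In WT2 that region came close to the Il13 start itself. A further region at the other end of Rad50, 72.5 kb from the Il13 start, had 74.0, 54.8 and 72.1 tags.

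**Figure D2:**
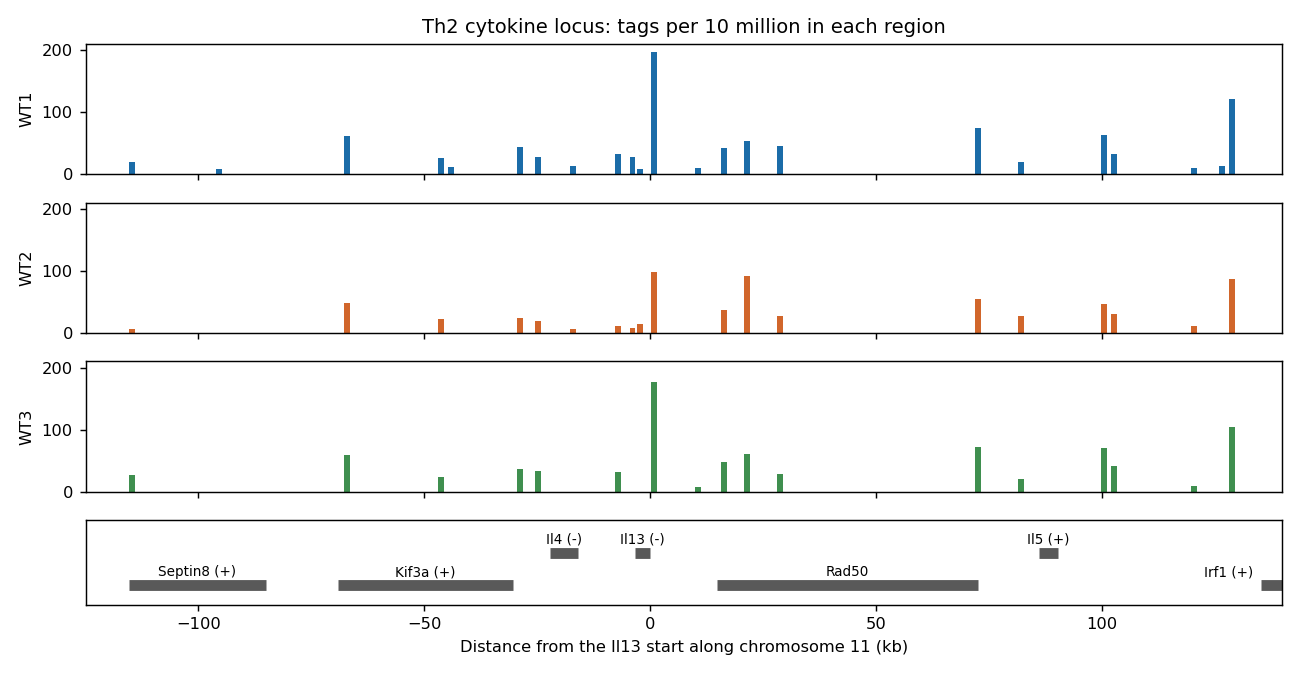
Tags per 10000000 in each called region (bars) against distance from the Il13 start along chromosome 11 in kb, 1 row per wild-type ATAC library, with gene bodies below and their strand where given. The bar at the Il13 start is the tallest in each library, and no bar stands at the Il5 start.

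The 250 bases before the listed starts of these 3 neighbours are shown because the genes share a locus and differ in both readouts. The sequences are RefSeq's, build GRCm38, 5′ to 3′ on the gene's strand, at chr11:53634703-53634952 (minus) for Il13, chr11:53618666-53618915 (minus) for Il4 and chr11:53720544-53720793 (plus) for Il5. Capitals mark GATA words, that is GATA with A or T before it and A or G after it, on either strand.
Il13: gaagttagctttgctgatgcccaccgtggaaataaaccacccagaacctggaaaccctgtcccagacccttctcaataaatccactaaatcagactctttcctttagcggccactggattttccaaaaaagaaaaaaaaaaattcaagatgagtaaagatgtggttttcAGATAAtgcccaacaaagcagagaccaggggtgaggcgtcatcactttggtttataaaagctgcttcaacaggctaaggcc
Il4: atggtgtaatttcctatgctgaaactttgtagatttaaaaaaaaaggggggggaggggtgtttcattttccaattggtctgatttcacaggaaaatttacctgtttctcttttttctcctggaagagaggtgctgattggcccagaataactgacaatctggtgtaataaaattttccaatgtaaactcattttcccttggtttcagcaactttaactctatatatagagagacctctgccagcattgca
Il5: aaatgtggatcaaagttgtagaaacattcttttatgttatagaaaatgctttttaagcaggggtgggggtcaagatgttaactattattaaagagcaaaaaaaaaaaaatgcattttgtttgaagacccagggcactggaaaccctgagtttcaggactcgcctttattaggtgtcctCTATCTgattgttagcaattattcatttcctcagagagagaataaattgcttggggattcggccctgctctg
Il13 and Il5 each held 1 such word and Il4 held 0, none overlapping another motif searched. Of 14704 genes with a listed promoter, 21.1% held at least 1 GATA word in a window of the same length. Il5 thus had the word and no open region, and a match is only a description of these letters.

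Il2 and Il9 differed in their surroundings as well. Il2 lay in a single wide region, chr3:37118242-37131153, which covered 12885, 12325 and 12383 bp in WT1, WT2 and WT3 with 431.8, 350.3 and 433.3 tags. It was the only listed cytokine among the 500 widest regions, to which 2.09% of located gene starts belonged. Il2 transcription is driven by NFAT, whose core word GGAAA on either strand is in capitals in the 250 bases before its start (RefSeq, GRCm38, chr3:37125955-37126204, minus strand).
Il2: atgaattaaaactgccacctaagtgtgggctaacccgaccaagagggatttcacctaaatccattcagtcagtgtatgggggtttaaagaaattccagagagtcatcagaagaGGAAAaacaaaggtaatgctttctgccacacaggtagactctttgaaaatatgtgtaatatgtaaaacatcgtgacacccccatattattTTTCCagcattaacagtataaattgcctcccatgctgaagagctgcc
The word occurred 2 times there, and 54.9% of promoters held it. The Il9 start had a low region, with 18.9, 7.64 and 12 tags, and a taller one, chr13:56474842-56477752, with 100.8, 66.3 and 155.1. At Csf2 and Il3 the starts had 60.8, 53.5 and 60.1 tags and 17.4, 8.73 and 19.1. Penk, despite its high count, had a start of 66.1, 72.6 and 80.3 tags in a region of 2455 bp. The median start height of all open located genes was 90.9, so that of Penk was not tall.

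The listed Th2 receptors covered a wide range of levels. Tnfrsf4, which encodes the costimulator OX40, was measured at 3782, 3932 and 3764 normalized counts in WT1, WT2 and WT3. Il2ra, the alpha chain of the IL-2 receptor, read 2652, 2440 and 2275. Il4ra, which receives IL-4 and IL-13, read 1096, 815 and 868, in a region of 6512 bp. Il1rl1, the receptor of the alarmin IL-33, read 22.4, 19.5 and 37.2, and Il17rb, the receptor of IL-25, read 8.48, 5.49 and 6.71. Ptgdr2, the prostaglandin receptor CRTH2 often used to sort Th2 cells, was listed at 0 in all 3 libraries. Il1rl1 had no region of all 3 libraries within 1 kb of its listed starts, but a region inside the gene, chr1:40412198-40414283, had 124.6, 91.1 and 119.0 tags. Crlf2, a chain of the receptor for the alarmin TSLP, read 448, 349 and 433 and had a tall start of 669.2, 461.9 and 626.6 tags. Of the 19 listed Th2 receptors in the table, 10 had a mean of at least 50, beside 46.2% of all genes. Ptger4, Icos and Ptger2 had means of 893, 703 and 511. Ccr4 and Ccr8, chemokine receptors of Th2 and skin-homing cells, read 466, 497 and 450 for Ccr4 and 204, 159 and 193 for Ccr8. Il7r, Il9r, Ptgir, Il18r1, Cd200r1 and Cysltr1 had means between 26.6 and 89.6, and Ccr3 was listed under 10. Il9r was uneven, at 12.5, 9.36 and 122.

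Of the 29 listed cytokine receptors, 20 reached the minimum, beside 46.2% of all genes. They were led by Il2rg, the chain shared by the IL-2 family, at 3366, 2688 and 2682. Il21r, Il2rb, Il12rb1, Ifnar1, Tgfbr2, Ifngr2 and Il6ra followed, with means from 1813 for Il21r down to 274 for Il6ra. Il27ra, Il10rb, Ifnar2, Il6st, Tgfbr1, Ifngr1, Il15ra and Il18rap had means between 75.2 and 222. Il1r1, Il1r2, Csf2rb and Il10ra lay between 17.6 and 47.9, and Il12rb2, whose product Th1 cells need to sense IL-12, was listed at 2.88, 0 and 0. Its partner Il12rb1 read 730, 462 and 677. Chemokine receptors were led by Ccr7, which guides T cells into lymph nodes, at 2516, 2642 and 2960. Gpr183, S1pr4, Ccr9 and Cxcr4 had means of 383, 271, 133 and 75.9. Ccr2, S1pr1, Xcr1, Cxcr6, Ccr6, Ackr3 and Ccr1 had means between 16.9 and 61.1, while Cx3cr1 had a mean of 8.16. Costimulators and checkpoints were mostly expressed, 20 of 22, beside the same 46.2% of all genes. Tnfsf11, which encodes RANKL, read 4915, 3835 and 4585, and Btla, Tnfrsf18, Tnfsf8 and Pdcd1 had means of 2797, 2717, 1843 and 1086. Cd274, Tnfrsf9, Cd226, Cd28, Slamf1, Cd83, Cd80, Ctla4 and Cd40lg lay between 329 and 851, and Cd96, Cd27, Lag3 and Tigit between 52.3 and 202. Cd86 and Havcr2 had means of 13.55 and 12.97.

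Levels in the list of prostaglandin and nuclear receptors also ran over a wide range. Nr4a1 and Nr4a3, orphan nuclear receptors and early response factors of T cell receptor signaling, had means of 750 and 434, and Nr4a2 one of 418. The Nr4a3 start was tall, with 774.1, 448.8 and 722.4 tags. Rara, the retinoic acid receptor, read 335, 216 and 277 normalized counts but had one of the tallest starts, with 928.1, 613.0 and 888.7 tags. Nr1h2, Nr3c1, Rora, Ptger3, Ahr, Vdr and Ptger1 had means between 49.2 and 480, and Nr1h3 and Ptgdr were listed under 10. In all, 12 of 18 genes of this list reached the minimum, beside 46.2% of all genes.

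Genes of other helper lineages were not uniformly silent. The Th1 master factor Tbx21 was measured at 17.9, 35.9 and 39.0 normalized counts in WT1, WT2 and WT3, below Gata3 in each library, and Ifng at 24.1, 0 and 38.0. The Tbx21 start was open at 34.0, 27.0 and 34.5 tags, while Ifng had no region of all 3 libraries within 1 kb of its start. The signal carrier Stat4 had a mean of 807. Beside 46.2% of all genes, 11 of 18 Th1 genes reached the minimum. Runx3, Il12rb1, Il27ra and Ccl3 were among them, with means of 322, 623, 222 and 215. Eomes and Hlx read 67.8 and 49.4 in the mean, and Ccl4, Cxcr3, Ccl5, Nkg7 and Gzmb between 21.1 and 71.5. Of 14 Th17 genes in the table, 5 reached the minimum and 7 had an open start, beside 46.2% of all genes and 63.6% of all located genes. Il17a was listed at 0, 0 and 18.8, and Il17f at 58.1, 36.3 and 40.3. Stat3, Rora and Ahr had means of 975, 222 and 70.2, Ccl20 and Il22 of 46.4 and 23.3, and Batf3 was listed under 10. Il17a had no open start.

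Foxp3, the regulatory T cell factor, was listed at 0, 9.41 and 19.3. A region 5′ of it, chrX:7572376-7575286, which overlaps Flicr, had 189.9, 113.2 and 170.1 tags, although no region lay at the Foxp3 start. Il2ra, Tnfrsf18 and Ctla4, which activated helper cells share with regulatory cells, were expressed. In all 10 of 15 genes of that list were, beside 46.2% of all genes. Ikzf2 and Ikzf4 had means of 312 and 180. Bcl6, the follicular helper factor, read 113, 84.99 and 92.9, inside a wide region of 8423 bp with 235.5, 139.4 and 115.3 tags. Cxcr5, the follicle homing receptor, was measured at 1.25, 20.04 and 9.26, yet its start had 126.4, 99.3 and 118.3 tags. Tox2 and Ascl2, of the same lineage, were likewise open at 106.1, 58.9 and 108.5 and at 74.7, 55.9 and 71.7 tags with mean counts of 8 and 5.58. All 12 follicular genes in the table had open starts and 8 reached the minimum, beside 63.6% of located genes and 46.2% of all genes. Tox and Id3 had means of 167 and 712. Genes of naive and memory cells were expressed in 13 of 14 cases, Klf2 being the exception at 30.8, 19.2 and 64.1. Lef1, Tcf7, Bach2 and Foxo1 had means between 569.5 and 1159, and Cd44 read 4685, 4066 and 3978.

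Ranked by normalized counts over all genes, the top 20 held 9 ribosomal protein genes, 4 mitochondrially encoded genes, 1 predicted gene and 6 others, and made up 6.88%, 7.72% and 7.57% of the total in WT1, WT2 and WT3. The mitochondrial mt-Co1, a subunit of cytochrome oxidase, was first with 42192, 39037 and 30818. Translation was represented by Eef1a1 and Eef2, elongation factors, at 34854, 30624 and 34752 and at 30506, 23362 and 26724. Rpl41, Rpl13a, Rplp0, Rplp1, Rps9, Rps2, Rpsa, Rpl4 and Rps3 had means from 30860 for Rpl41 down to 18912 for Rps3. The chaperone Hsp90ab1, the actin binder Tmsb4x, the nucleolar Npm1 and Actb had means of 21595, 20872, 19478 and 18565. The mitochondrial mt-Rnr2 and mt-Cytb had means of 24885 and 20085. In this group 2 genes were uneven. The predicted gene Gm10800 read 21422, 28784 and 52852, and mt-Co2 read 18203, 43083 and 23976. Lars2, a mitochondrial tRNA synthetase at rank 30, was similarly uneven, at 13198, 28786 and 8150. Beside it, mitochondrially encoded genes took 2.48%, 3.35% and 2.15% of counts, so their sum too was highest in WT2. Single genes differed: of 15 mitochondrially encoded genes 9 were highest in WT2, 4 in WT1, mt-Co1 among them, and 2 in WT3. Inside Lars2 a narrow region, chr9:123461602-123462375, had 926.2, 623.7 and 825.3 tags in 768 bp, a density of 1031 tags per kb, whereas the median region had 26.95. The part of that sequence in the Lars2 count was not tested.

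Metabolic genes were broadly expressed. Over all genes 46.2% reached the minimum. An open start was found for 63.6% of located genes and for 88.5% of those at the minimum, so open starts are common among expressed genes in general. In glycolysis, which activated T cells use heavily, 21 of 23 genes reached the minimum and 22 had open starts. Ldha, which makes lactate, was measured at 13458, 11936 and 13167 normalized counts in WT1, WT2 and WT3, and Eno1 and Pkm had means of 12231 and 11851. Pgk1, Aldoa and Tpi1 followed at 8311, 5873 and 4840. The glucose transporter Slc2a1 read 883, 773 and 709, above Slc2a3 at 134, 100 and 120. All 26 genes listed for the tricarboxylic acid cycle and all 28 nuclear genes of the respiratory chain reached the minimum and had open starts. The first list also holds genes beside the cycle, such as Pdha1 and the cytosolic enzymes Idh1 and Mdh1. Mdh2, at 2780, 2680 and 2603, led that list, before Sdha, Mdh1, Dlst and Cs with means between 1271 and 1427. Idh1 was the lowest listed gene, at 104, 47.7 and 88.0. Atp5b, the catalytic subunit of ATP synthase, led the chain at 12438, 11230 and 10907, with Atp5a1, Cox4i1, Cox6a1, Atp5d and Cox6c after it at means from 6632 down to 1706. The 13 mitochondrially encoded genes had a median ratio of highest to lowest library of 1.88, against 1.24 for the nuclear respiratory genes.

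Of 10 pentose phosphate and NADPH genes 9 reached the minimum, with Tkt highest at 1645, 1539 and 1641, Pgls, Taldo1, Nadk, Pgd and Rpe at means between 456 and 991, and Me1 at 12.4, 0 and 0. Nnt, the mitochondrial NADPH source, differed among libraries, at 202, 107 and 21.2. All 33 antioxidant genes reached the minimum and 32 had open starts. The counts of this paragraph stand beside 46.2% of all genes at the minimum and 88.5% of located genes at the minimum with an open start. Ftl1 and Txn1, ferritin light chain and thioredoxin, had means of 6106 and 5740, and Prdx2, Sod1, Fth1 and Gpx1 lay between 3142 and 4709. Nfe2l2, which encodes NRF2, a factor that drives many antioxidant genes, was measured at 170, 155 and 147. It had a tall start of 353.7, 217.2 and 324.0 tags in chr2:75703132-75705717. The part of NRF2 in the levels of this list was not tested. Keap1, the partner of NRF2 in control, read 544, 428 and 612. Slc7a11, the cystine importer, read 140, 226 and 143 and alone in the list lacked an open start. Nucleotide and one-carbon genes were expressed in 24 of 24 cases, led by Gart, Cad, Rrm1, Impdh2, Phgdh and Psat1 with means from 2429 to 1280. Cad, the first enzyme complex of pyrimidine synthesis, read 2763, 886 and 1653. Lipid synthesis was expressed in 23 of 23, with Idi1, Fasn, Srebf2, Acly and Cyp51 at means between 1599 and 2330. Fatty acid oxidation reached the minimum in 18 of 20, led by Acadvl, Etfb, Hadhb, Hadha, Etfa and Etfdh at means between 544 and 1567. Cpt1a, its gatekeeper, read 223, 156 and 186. Amino acid transport was led by the glutamine carrier Slc1a5 at 4534, 2668 and 2908, and 13 of 16 genes of the list reached the minimum. All 20 proliferation genes were expressed, among them Pcna, Stmn1, Top2a, Mcm3, Mcm6 and Mcm5 at means from 2505 to 1002, and Mki67 at 1303, 760 and 840.

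Open chromatin in these libraries comprised 90678 regions when peaks sharing at least 1 bp were joined. Of these 45551 (50.2%) were found in all 3 lists, 13617 in 2 and 31510 in 1. Regions of all 3 lists lay within 1 kb of a protein-coding start in 27.59% of cases. Those were tall and wide, with a median of 77.4 tags and 1546 bp, against 19.9 tags and 788 bp for the 47.72% inside genes. The rest, 24.69%, lay outside genes, at a median of 18.6 tags. Of regions in 1 list, 5.44% lay at a start.

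Genes with more RNA more often had an open start. Located genes were split into 5 groups of 4269 by their mean count. From the lowest group to the highest, the share with an open start was 25.1%, 40.6%, 63.3%, 91.7% and 97.2%. The median start height of open genes was 36.6, 44.8, 66.2, 101.3 and 131.2 tags in the same order. Within the 13571 genes with an open start, Spearman's rho between start tag count and normalized count was 0.427, and 0.428, 0.415 and 0.415 with the RNA and ATAC values of WT1, WT2 and WT3. These are correlations across genes, which are not independent replicates, and the points share libraries. Of genes with a mean under 10 normalized counts, which were 29.2% of all genes, 27.07% of those located had an open start.

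**Figure D3:**
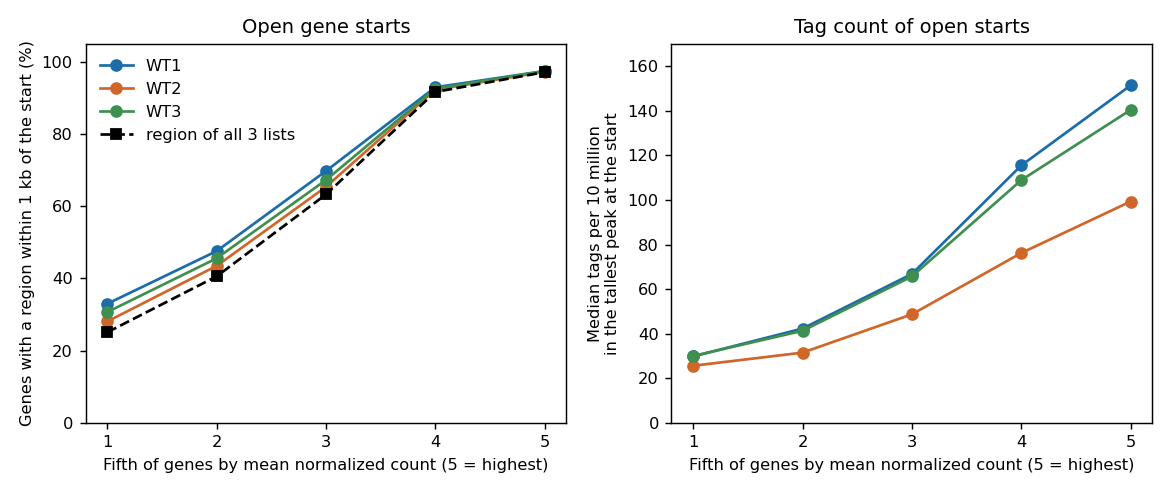
Left, the percentage of genes with a region within 1 kb of the start, and right, the median tag count of the tallest peak there, for 5 equal groups of genes ordered by mean normalized count, with 1 line per wild-type library and squares for regions of all 3 lists. Both are higher in each next group in every library, and WT2 is the lowest line for tag count.

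Base composition differed between open and other starts. Promoters with an open start had a median of 16.0 CG dinucleotides in 250 bases, and those with a region in no list had 2.0. For expressed genes the medians were 17.0 for the open and 2.0 for the 493 promoters in no list. GATA words were present in 16.5% of open promoters and 37.1% of those in no list, and antioxidant response core words (TGACNNNGC, either strand) in 12.2% and 8.1%. The median GC content of these 2 sets was 60.4% and 46.0%, and its part in the word shares was not tested. The 250 bases before a listed Gata3 start (RefSeq, GRCm38, chr2:9878601-9878850, minus strand) are shown with CG in capitals as an example of an open lineage promoter rich in CG, with 19, where the Il13, Il4 and Il5 windows above held 3, 0 and 2.
Gata3: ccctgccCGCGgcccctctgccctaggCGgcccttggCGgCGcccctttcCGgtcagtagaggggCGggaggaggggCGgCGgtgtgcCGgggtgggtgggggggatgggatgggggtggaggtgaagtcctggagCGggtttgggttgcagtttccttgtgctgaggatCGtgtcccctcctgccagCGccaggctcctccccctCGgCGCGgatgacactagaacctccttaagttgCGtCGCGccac
Il13 was thus open with few CG, unlike the median open promoter.

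The tallest regions were of 2 kinds. The first kind was not at gene starts. The mitochondrial genome, chrM, took 7.01%, 4.98% and 6.84% of ATAC tags in WT1, WT2 and WT3, and a ribosomal RNA repeat on chromosome 17 (Rn18s-rs5) 0.86%, 0.49% and 0.81%. Narrow regions followed at chr2:98666247-98667462, with 2522, 2790 and 2453 tags, at chr11:109011398-109012369, with 3071, 1665 and 2948, and at chr3:5860245-5861005, with 2154, 1215 and 2013. Others lay inside Cdk8, Cmss1 and Zc3h7a, with means of 1283, 1243 and 1030 tags in 711, 967 and 748 bp. Each of these narrow regions had a mean above 1000 tags per kb, whereas the 99th percentile of all regions was 146.0. Stretches of the unplaced contig JH584304 and of Sfi1 were tall and wide at once. At these narrow regions WT2 was lower than WT1 and WT3 except on chromosome 2.

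The second kind lay at genes. The tallest was Junb, chr8:84973666-84987038, which also holds Prdx2 and had 1764.5, 1034.0 and 1721.8 tags in 13.0 kb. Mir142 came next, chr11:87741906-87765768, with 1011.9, 1019.8 and 1475.2. After the Ugt1a block on chromosome 1, described with the widest regions, Brd2 (1196.1, 711.2 and 1103.5), a reader of acetylated histones, and Jund (1174.2, 703.6 and 1093.7), an AP-1 subunit, came next by mean. Sin3a, a corepressor, had 1284.1, 848.5 and 836.5. Trac, the constant part of the T cell receptor alpha chain, had 1115.0, 775.6 and 1051.3, and Nfkbia, the inhibitor of NF-kappa-B, 1130.4, 572.9 and 1161.3. Mean density was 68.8 to 190.6 tags per kb at these genes, far below the narrow kind. RNA of these genes ranged widely: Jund and Junb had means of 6840 and 6824 normalized counts, Nfkbia 5554 and Brd2 2265, but Sin3a 284.

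**Figure D4:**
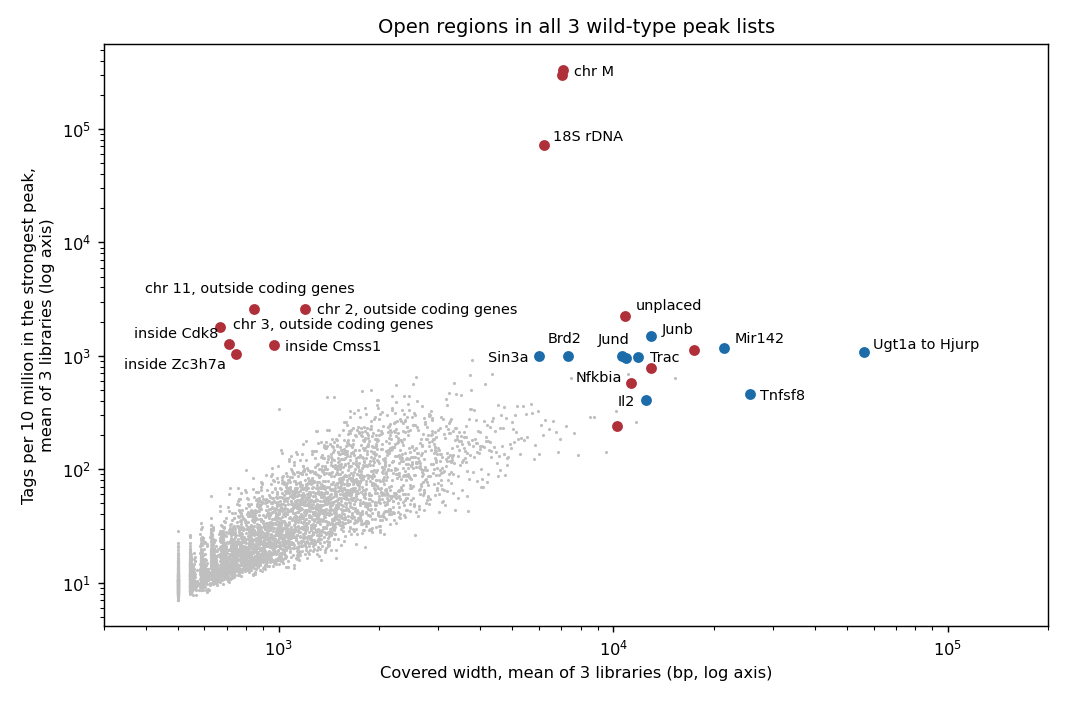
Tag count of the strongest peak against covered width, both means of 3 wild-type libraries on log axes, for every 10th region found in all 3 lists (grey) and for named regions. Red marks mitochondrial, ribosomal RNA, unplaced and narrow dense regions, and blue marks regions at genes. Wider regions had more tags (Spearman's rho 0.884 across 45551 regions), and the red narrow regions stand far above regions of their width.

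The widest region was a block on chromosome 1, chr1:88211520-88270555, of 57114, 57795 and 53255 bp in WT1, WT2 and WT3. It spans the Ugt1a cluster of glucuronosyltransferases, Mroh2a and the end of Hjurp, and was followed after a short gap by a region at the start of Hjurp, of 20722, 20757 and 19836 bp, and by one at Trpm8, of 10986, 16111 and 10252 bp. Its density was low, 25.99, 23.85 and 25.38 tags per kb, close to that of the median region. RNA of Ugt1a1 was listed at 0, 0 and 22.65 and of Mroh2a at 14.2, 0 and 27.9, while Hjurp, a centromere chaperone, read 705, 526 and 512. Of the 11 coding genes that overlap the block 9 are in the RNA table, of which Hjurp and Ugt1a6a (61.9, 161 and 116) had a mean of at least 50 and 2 were at 0 in all libraries. Genes of the Ugt1a cluster share exons, so counts of its single members are uncertain.

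The second widest region, chr4:63836423-63864028, covered Tnfsf8, which encodes the ligand of CD30, over 24599, 25113 and 26953 bp, and its RNA read 2308, 1684 and 1535. Beside Sfi1 and stretches of an unplaced contig, other regions among the 20 widest lay at Ikzf1, Zbtb7b (the factor that fixes CD4 fate), Bcl11b, Cish (an inhibitor of cytokine signals), Cd82, B3gnt2, Rhof with Setd1b, and Zfp36 with Plekhg2. Their mean widths were 15.5, 14.5, 12.2, 15.3, 13.1, 18.2, 15.9 and 13.1 kb. Ets1 and Bach2 came just after the first 20, at 11.7 and 11.6 kb, with regions inside the gene and away from the listed start. RNA of Zbtb7b read 821, 412 and 517, and of Cish 1677, 1221 and 1324.

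Among the 5 widest regions, 2 held microRNA genes, which are shown for their seeds because these short RNAs are not measured in the RNA table. The Mir142 region covered 22328, 22330 and 19759 bp, and the Mir155 region, chr16:84700567-84722427, 18764, 20036 and 19843 bp with 43.3 tags per kb. Mature sequences are from RefSeq (GRCm38), 5′ to 3′, with the seed, bases 2 to 8, in capitals.
mmu-miR-142a-5p: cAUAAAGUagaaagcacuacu
mmu-miR-142a-3p: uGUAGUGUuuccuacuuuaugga
mmu-miR-155-5p: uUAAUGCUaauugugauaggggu
The 3 seeds differ. miR-142 is abundant in blood cells and miR-155 in activated lymphocytes. Their host transcripts were modest, Mir142hg at 57.5, 76.0 and 73.5 normalized counts and Mir155hg at 296, 191 and 211. The regions were nonetheless among the widest in every library.

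Start width varied among the gene lists. Among the 500 widest regions, each of at least 4678 bp, 2.09% of all located starts lay. For open starts of genes with a mean of at least 50 it was 373 of 9909. Of 27 T cell receptor complex and signaling genes, 12 had their start in these widest regions, and 5 of 14 naive and memory genes and 5 of 19 Th2 factors. So did 5 of 18 prostaglandin and nuclear receptors and 2 of 15 housekeeping genes. None of 23 glycolysis, 26 tricarboxylic acid cycle, 28 nuclear respiratory, 20 fatty acid oxidation and 20 proliferation genes did. At a share of 2.09%, lists of this size would hold few such starts, so these counts of 0 say little by themselves. The antioxidant list had 2, and the nucleotide, amino acid transport and lipid synthesis lists had 1 each. Other T cell lists held 4 of 22 costimulators and checkpoints, 4 of 19 Th2 receptors, 3 of 29 cytokine receptors and 2 of 19 chemokine receptors. They also held 1 of 18 Th1 genes, 1 of 14 Th17 genes, 1 of 12 follicular genes and 0 of 15 regulatory T cell genes. In the list of 22 Th2 cytokines and secreted proteins it was 1, and that gene was Il2. The median start width was 4509 bp for T cell receptor genes, 4343 bp for naive and memory genes and 3590 bp for Th2 factors. It was 2230 bp for glycolysis, 1554 bp for the acid cycle, 1479 bp for the respiratory chain and 1736 bp for all open starts of genes at 50 or more. The antioxidant and amino acid transport lists had 2113 and 2385 bp, housekeeping genes 2452 bp and Th2 receptors 2760 bp. Not every T cell list was wide: the median was 2005 bp for costimulators and checkpoints and 1698 bp for cytokine receptors. It was 1568 bp for Th17 genes, 1395 bp for Th1 genes and 1296 bp for regulatory T cell genes. The list of Th2 cytokines and secreted proteins had 1351 bp. Yet median counts at these open starts were 1549 for T cell receptor genes and 1241, 977 and 1329 for glycolysis, the acid cycle and the respiratory chain, beside 684 for naive and memory genes and 745 for Th2 factors. The tag count of the strongest peak, which grows with width, differed less. Its medians were 150.6 for T cell receptor genes and 164.2, 124.0 and 95.5 for these 3 metabolic lists. Per kb the starts of these metabolic lists were denser, at 59.5, 76.8 and 57.5 tags against 30.5 for T cell receptor genes. These counts and medians carry no test.

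**Figure D5:**
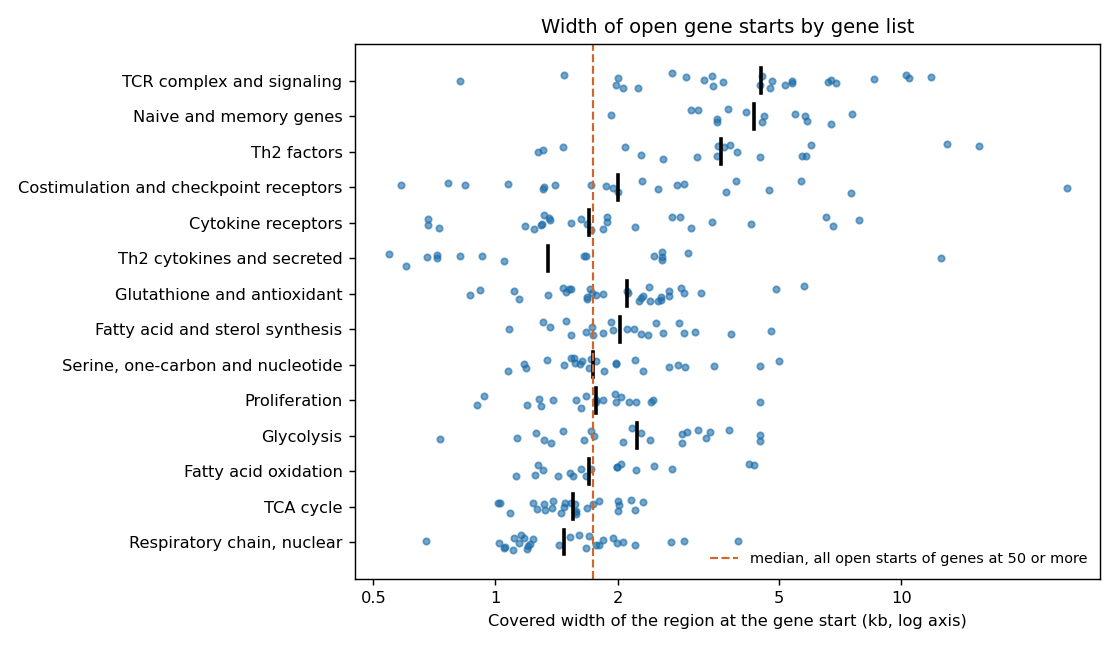
Covered width in kb (log axis) of the region at each open start, mean of 3 wild-type libraries, 1 point per gene, with the list's median as a black bar and the median of all open starts of genes at 50 or more as a dashed line. To the right of the line lie 24 of 26 T cell receptor genes, 14 of 14 naive and memory genes and 15 of 18 Th2 factors. So do 10 of 28 respiratory, 8 of 26 acid cycle, 8 of 18 fatty acid oxidation, 14 of 22 glycolysis and 15 of 22 lipid synthesis genes. For antioxidant genes it is 19 of 32, for nucleotide genes 12 of 24 and for proliferation genes 11 of 20. Among costimulators and checkpoints it is 13 of 21, among cytokine receptors 12 of 26 and among Th2 cytokines and secreted proteins 6 of 16. The line is a median, so all such starts divide evenly around it.

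Within the T cell receptor list, the widest start was that of Trac, at 11.8 kb. Cd5 and Cd6, inhibitory neighbours on chromosome 19, had starts of 10.4 and 10.3 kb with 365, 260 and 302 tags and 330, 134 and 162 tags. Zap70, the kinase that binds the activated receptor, had 8.585 kb, and Prkcq and Plcg1, downstream signalers, 6.903 and 6.600 kb. Cd3d and Cd3g share a region of 5.37 kb and are counted as 2 starts. Cd4 had no strand in the annotation used, so regions at both of its ends counted as starts. The taller, which overlaps Gpr162, covered 1472 bp with 41.1, 34.4 and 57.1 tags. At the other end a region of 1540 bp had 37.4, 24.8 and 38.3 tags. Both were narrow, among 6 regions of all 3 libraries around Cd4. Ptprc, with the highest count of the list at 7780, 5372 and 6361, had a start of 2720 bp, so the highest count did not come with the widest start. By counts Cd5, Lat, Cd6, Trbc1 and Lck came after Ptprc, with means of 6171, 4949, 4809, 3177 and 3094.

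Some genes departed from the link between RNA and an open start. Of the 10 genes with the highest counts and no region within 1 kb in any WT list, 7 had names of ribosomal protein pseudogenes, such as Rps23-ps1 at 4237, 4677 and 4860 normalized counts and Rps6-ps4 at 3599, 3862 and 3733. The others were Erdr1, with a mean of 2461, Rps3a2, with 1724, and Sri, a calcium-binding protein, with 1417. Reads of a processed pseudogene and its parent are hard to tell apart, so these counts are uncertain. In the other direction, the 10 tallest starts of genes with a mean under 10 were listed. Astl shared its region with the start of Dusp2, a phosphatase gene at 2637, 2379 and 2906. Tnp2 shared one with Socs1 at 260, 188 and 248, Tctex1d4 with Btbd19, Junos with Jun and Rab26 with Traf7. H4c1, H3c4 and H2bc8 are replication histone genes in clusters, and Ugt1a1 lay in the chromosome 1 block. Zfp78, at 16.1, 6.58 and 0, shared its start with no other located gene and had 494.4, 282.9 and 471.2 tags.

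Agreement among the RNA libraries was checked on 6417 genes whose mean was at least 200, predicted genes left out. The median ratio of highest to lowest library was 1.36, and 7.73% of genes exceeded 2. The most uneven was Zc3h11a, at 931, 467 and 0. Trim41 read 486, 74.9 and 200, Ap3s2 924, 145 and 193, and the clock gene Cry1 995, 198 and 187. Zfp236, Snapc1, Nkap, Clspn, Cln8, Mrs2, Rad54l2 and Ints6 had ratios between 4.51 and 5.83. WT1 was the highest library in most of these genes, but not in Nkap, Cln8, Mrs2 and Rad54l2.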

How the data were processed

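RNA-seq and ATAC-seq libraries labelled WT were used, 3 of each, out of 12 libraries, and 3 other per-sample RNA columns were left out. The submitters' processing notes name HOMER 4.11, Bowtie2 2.3.5.1, RSEM 1.3.3, STAR, edgeR and DESeq2 with mm10, without their roles. The deposited RNA table gives counts that the authors normalized, treated as a signal, which are not whole (0.18% of values within 0.001 of a whole number), so raw depth is unknown. Where a symbol was on more than 1 of the 25700 rows, only its row with the highest mean was kept. The other rows of such symbols, 25 in all, were left out. Per the file headers, peaks were called by HOMER in each library at a Poisson p-value of 0.001, peak size 500 and minimum distance 1000, with at most 1 tag per bp. The deposited tag count of a peak is a signal per 10000000 tags over the whole peak, so it grows with width. The peak score in the deposited lists is a score and served only as an alternative threshold.

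Peaks of the 3 lists sharing at least 1 bp were joined into regions with Python 3.11.15, pandas 2.3.3, numpy 2.4.6 and scipy 1.17.1 (figures with matplotlib 3.10.9). The tag count of a region in a library is that of its strongest peak, and the covered width is the sum of its peaks. Of the table's symbols 83.1% were located on RefSeq's GRCm38 annotation; starts followed the strand for 14764 genes, and both ends were used for the others. Joining and start assignment were tested on simulated peaks. Levels per kb of transcript had been planned, but transcript lengths were not used here, so levels are counts.

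Genes named are the 20 highest by count; of each list the 6 highest, with all factors, cytokines and receptors of the helper and receptor lists; those at the 20 tallest and widest regions; 12 with the largest spread between libraries; and 10 at each end of the RNA and open start comparison. Some genes that these rules name are not reported here. Others, such as the remaining genes of a list, were named after their values were seen. The libraries, lists and rules were chosen with earlier results of these data known. No test was made, since there is 1 group.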

Additional observations from a re-analysis of the deposited data

How the results depend on the processing

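With another threshold the number of expressed genes was 18181 (minimum mean of 10), and the regions shared by all lists numbered 15775 when only peaks above each list's median score were kept. Ranked by tags per kb, 9 of the 20 tallest regions were still among the first 20. The share of expressed genes with an open start was 90.7% with a region within 5 kb and 91.0% with a region in at least 1 list, and it was 92.3% among genes whose start is given by strand, a setting chosen after seeing the data. Without 1 ATAC library it ranged from 88.515% to 89.131%. Spearman's rho of start tag count and RNA was 0.383 for tags per kb of peak and 0.294 for genes at 50 or more, and without 1 library it ranged from 0.42 to 0.448. The cause of these shifts was not tested. The levels of 20 genes moved by less than 1 SD between libraries when each library was rescaled to the same total. Leaving out 1 of 3 libraries cannot move a mean by 1 SD, so those values say nothing about stability. Without WT3 the mean of Foxp3 fell from 9.57 to 4.71 and that of Ifng from 20.7 to 12.03, and the mean of Il4, 3.13, was 2.08 without WT3 and 4.7 without WT2. Leaving out mitochondrial, ribosomal RNA and unplaced sequence, also chosen after seeing the data, kept 15 of the 20 tallest and 18 of the 20 widest regions. Regions outside that sequence cannot lose their place when it is left out. These counts therefore only tell how many regions lay outside it and say nothing about stability.

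No paired analysis was possible because there is 1 group and no comparison. With 3 libraries per assay and unknown raw RNA depth, genes under about 10 normalized counts cannot be told from 0. Widths depend on how the authors' caller stitched peaks, and tag counts on the lower share of tags in peaks in WT2.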
